A study of Homo sapiens with 18 samples.

Results

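The ZBTB genes encode transcription factors that pair a BTB domain with DNA-binding zinc fingers. Members were chosen by symbol, as ZBTB followed by a number and at most 1 letter, with 10 or more raw counts in at least 3 libraries. Of the 43735 genes in the count table, 40 symbols of this form were considered after 1 was set aside, and 33 of them met the count rule. The 7 that did not were ZBTB4 and ZBTB22, at 0 counts in every library, ZBTB8B, ZBTB9 and ZBTB12, with at most 1 count in a library, ZBTB47, with at most 7, and ZBTB32, with at most 10. All 33 members also passed the filter on low counts and were tested. The rule did not use the response to treatment, but the members were chosen with earlier results of these data known. The members took 0.187 to 0.278% of all counts of a library.

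Expression was measured by RNA sequencing in MM1S, a human multiple myeloma line that is killed by glucocorticoids, and in MM1R, a line of the same origin that resists them. Cells of each line were left untreated, were exposed for 3 h to RSL3 at 5 µM, or received 2 µM Fer-1 (ferrostatin-1) for 2 h ahead of the same RSL3 treatment. RSL3 blocks GPX4, the enzyme that detoxifies lipid peroxides, and so induces the iron-dependent cell death called ferroptosis, while Fer-1 traps the radicals that carry lipid peroxidation. Each of the 6 groups had 3 libraries, 1 per cell passage. The passages were 4, 6 and 7 for replicates 1, 2 and 3 of MM1R and 16, 22 and 23 for those of MM1S, and per-library values are always given in that order. Every culture was grown from 1 of 2 established lines, so replicates stand for passages of a line and not for patients, and p-values measure the spread between passages only. None of the 6 groups received Fer-1 without RSL3, and the labels name no vehicle for the untreated cells.

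ZBTB proteins bind DNA through their zinc fingers and use the BTB domain to form dimers and to recruit corepressors such as NCOR1 and BCOR together with histone deacetylases. Most act as repressors, some act as activators, and a few read methylated DNA or telomere repeats. In the B lineage they are known from choices of cell fate: ZBTB7A directs progenitors towards B rather than T cells, ZBTB17 works with MYC and ZBTB20 and ZBTB32 shape the life span of plasma cells, the normal counterpart of myeloma cells.

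Total counts were 17635438 to 19368343 per library. All 7 plasma cell markers looked at were present, with a summed level of 3579 to 5403 CPM (counts scaled to library size). The B cell markers summed to at most 0.506 CPM and the myeloid markers to at most 0.601 CPM. T cell markers summed to 3.42 to 11.8 CPM and erythroid markers to 3.40 to 12.7 CPM, each with only 1 gene that had enough counts to be tested. The Fer-1 and RSL3 library of MM1R passage 6 stood apart: across 7 genes that were at least 8-fold higher in every MM1S library than in the other MM1R libraries, its median level was 51.6% of the MM1S level, against -0.299 to 0.140% in the 8 other MM1R libraries. The library of MM1S cells given RSL3 at passage 16 also stood out, with the lowest TMM scaling factor (0.864) and fibroblast markers that summed to 19.6 CPM, against at most 3.93 CPM in every other library. This list held only 2 genes, COL1A1 and COL1A2. Only 1 of them had enough counts to be tested, and it was called higher with RSL3 in the average over both lines (log2 fold change 1.94). The main results that rest on either library are given with and without it. For other calls, such as those of ZBTB37 and ZBTB8A with Fer-1 and RSL3, only the loss of the call is given. The part of a mixture or of other cells in these libraries was not tested. In bulk RNA, fewer cells that express a gene and less RNA per cell cannot be told apart.

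In untreated cells 1 member, ZBTB38, was far above the others and 1, ZBTB20, was close to absent. Levels between genes are compared in CPM per kb of exon sequence. The highest was ZBTB38, a factor that binds methylated CpG sites, at 102 ± 14.4 CPM per kb (SD, n = 6 untreated libraries). ZBTB7B followed at 32.8 ± 3.78 and ZBTB7A at 17.4 ± 1.44 CPM per kb, and the ranges of these 3 genes overlapped neither each other nor the next gene. ZBTB33 (Kaiso, which also binds methylated CpG sites) and ZBTB44 came next, at 10.3 ± 1.64 and 10.3 ± 1.26 CPM per kb, and their ranges overlapped. From there down to ZBTB10 each gene overlapped its neighbour in the order. The lowest were ZBTB37 at 0.686 ± 0.082, ZBTB46 at 0.271 ± 0.184, ZBTB7C at 0.196 ± 0.162 and ZBTB20 at 0.0116 ± 0.00553 CPM per kb. Of these, ZBTB46 and ZBTB7C overlapped each other, while ZBTB37 lay above and ZBTB20 below that pair. Over all 18 libraries the 4 highest were ZBTB38, ZBTB7B, ZBTB7A and ZBTB44 (86.5, 26.4, 12.0 and 10.1 CPM per kb).

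**Figure D1:**
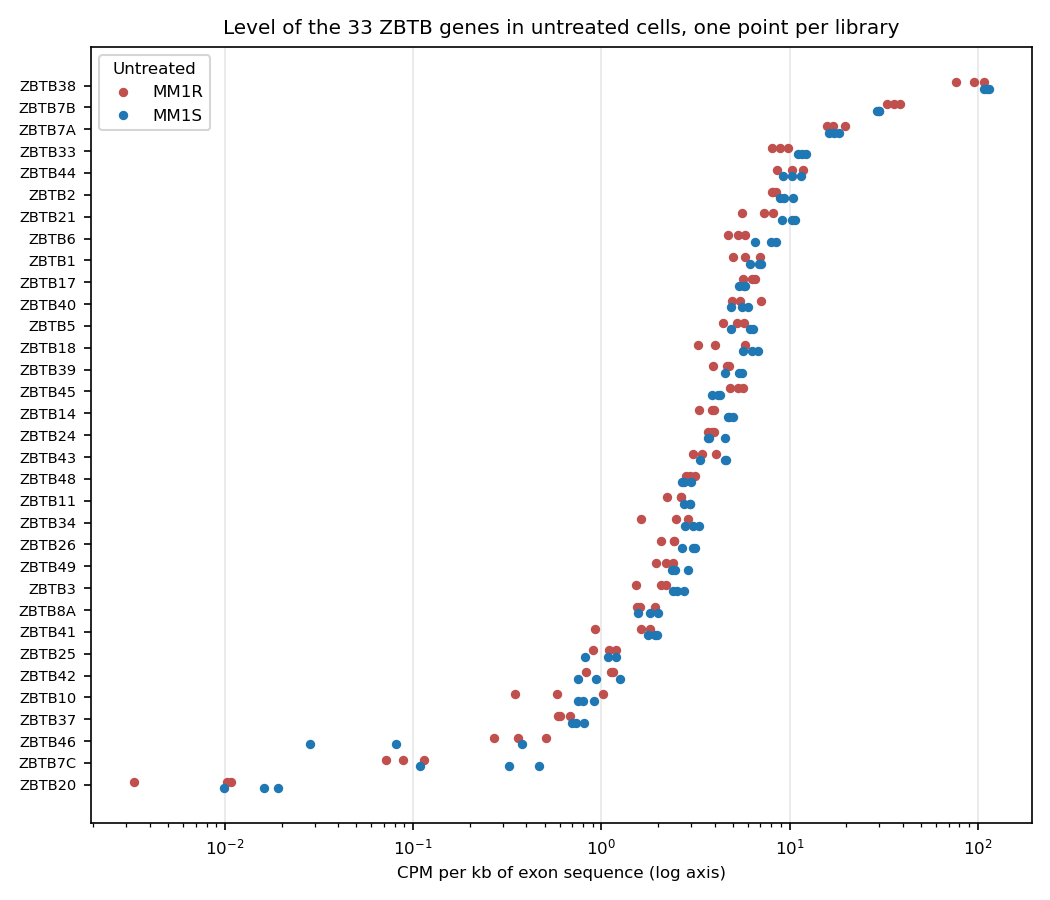
Level of each of the 33 ZBTB genes in CPM per kb of exon sequence on a log axis, 1 point per untreated library (red MM1R, blue MM1S), ordered by the mean. ZBTB38, ZBTB7B and ZBTB7A stand clear of the rest, and ZBTB20 is lowest, with 2 to 13 raw counts per library over all groups.

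ZBTB44, whose function is little known, was not called in any comparison. It measured 129.5, 114 and 94.2 CPM in untreated and 108, 116 and 119 CPM in RSL3-treated MM1R cells. In MM1S cells the values were 127, 102 and 113 CPM without treatment and 87.3, 95.4 and 99.9 CPM with RSL3. After Fer-1 and RSL3 it was at 107, 118 and 135 CPM in MM1R and 129, 92.4 and 110.2 CPM in MM1S. The MM1S RSL3 libraries lay wholly below their untreated group (log2 fold change -0.28, standard error 0.14, FDR = 0.292), without passing the test. ZBTB20, a regulator of plasma cell survival, had too few counts to follow: the untreated values were 0.364, 0.381 and 0.116 CPM in MM1R and 0.57, 0.679 and 0.351 CPM in MM1S, and no difference was detectable at this depth.

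The promoters of 28 members could be read from RefSeq, as 250 bases before and 50 after the annotated start in GRCh38.p14. Of these, 4 are printed, from genes called with RSL3 in the average over both lines. The call of ZBTB21 was only just past the threshold and was lost in most fits that left out a library. No promoter was matched for ZBTB6, ZBTB10, ZBTB17, ZBTB40 and ZBTB41. Each line runs 5′ to 3′ on the strand of the gene and covers 250 bases before the start and the first 10 bases after it. Capitals mark a match, on either strand, to an antioxidant response element (TGACNNNGC), a heat shock element (GAANNTTC), an AP-1 site (TGANTCA), a cAMP response element (TGACGTCA), a Kaiso site (TCCTGCNA) or an E-box (CACGTG).
ZBTB7A (chr19:4066890-4067149, minus strand): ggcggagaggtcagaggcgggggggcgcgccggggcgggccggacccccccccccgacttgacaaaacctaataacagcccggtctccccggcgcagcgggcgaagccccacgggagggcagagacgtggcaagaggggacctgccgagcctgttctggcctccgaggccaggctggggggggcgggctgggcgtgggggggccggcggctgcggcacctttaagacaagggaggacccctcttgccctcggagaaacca
ZBTB7B (chr1:155002399-155002658, plus strand): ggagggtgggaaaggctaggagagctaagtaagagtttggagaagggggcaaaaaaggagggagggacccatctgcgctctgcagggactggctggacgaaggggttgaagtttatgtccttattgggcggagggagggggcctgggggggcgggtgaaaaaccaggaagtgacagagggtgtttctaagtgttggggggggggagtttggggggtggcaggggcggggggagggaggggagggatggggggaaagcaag
ZBTB43 (chr9:126804790-126805049, plus strand): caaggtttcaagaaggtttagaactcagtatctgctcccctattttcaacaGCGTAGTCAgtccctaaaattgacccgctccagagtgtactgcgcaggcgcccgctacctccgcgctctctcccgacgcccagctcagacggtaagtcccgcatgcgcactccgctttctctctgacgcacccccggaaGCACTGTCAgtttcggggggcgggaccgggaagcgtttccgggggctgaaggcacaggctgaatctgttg
ZBTB21 (chr21:42010351-42010610, minus strand): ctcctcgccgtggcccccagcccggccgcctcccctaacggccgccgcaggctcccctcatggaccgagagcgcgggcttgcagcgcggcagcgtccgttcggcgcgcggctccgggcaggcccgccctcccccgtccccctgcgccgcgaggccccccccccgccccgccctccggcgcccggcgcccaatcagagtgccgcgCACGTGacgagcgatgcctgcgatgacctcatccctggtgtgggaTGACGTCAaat

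None of the letters searched occurred in the promoters of ZBTB7A and ZBTB7B. The ZBTB43 promoter held 2 antioxidant response elements, at -199 to -191 and at -60 to -52 from the start, on the opposite strand. The ZBTB21 promoter held an E-box at -46 to -41 and a cAMP response element that spans the start, from -1 to 7. Over the full windows of 300 bases, a cAMP response element was present in 3 of the 28 members (ZBTB11, ZBTB21 and ZBTB48, 10.7%) and in 3.17% of the 10502 tested genes with a promoter. An E-box was present in 6 members (ZBTB1, ZBTB11, ZBTB21, ZBTB24, ZBTB37 and ZBTB49, 21.4%) and in 10.0% of tested genes. An antioxidant response element was present in 3 members (ZBTB43, ZBTB46 and ZBTB48, 10.7%) and in 15.5% of tested genes. A heat shock element was found in ZBTB14 and ZBTB20 (7.14% against 4.73%), an AP-1 site in ZBTB20 (3.57% against 4.86%) and a Kaiso site in ZBTB7C (3.57% against 3.98%). No match in a member overlapped another match. The median GC content was 64.7% in the members' promoters and 65.0% in those of all tested genes.

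RSL3 lowered ZBTB7A in both lines, to 0.574 times its untreated level in the average, and raised ZBTB10 by 9.73-fold and ZBTB43 by 2.37-fold in the average over the lines. Without the MM1S RSL3 library of passage 16, the log2 fold change in this average went from 3.28 to 2.12 for ZBTB10 and from 1.24 to 0.92 for ZBTB43, and both still passed. In MM1R cells 1 of 33 members passed an FDR of 0.05 (edgeR's quasi-likelihood test, adjusted over 14281 genes), against 3.36% of all genes. In MM1S cells 3 members passed, against 3.67% of all genes. In the average over both lines 7 members passed, 5 higher and 2 lower, against 15.5% of all genes (8.7% higher and 6.81% lower). With a log2 fold change over 1 in size as well, the members called were 0, 2 (ZBTB10 and ZBTB43) and 2 (the same genes) in these comparisons, against 1.2%, 1.61% and 3.24% of all genes. The median log2 fold change of the members was 0.05 in MM1R and -0.14 in MM1S, and that of all genes was 0.00023 and 0.0022. Without the MM1S RSL3 library of passage 16, the counts of members called were 5, 1 and 6 in MM1R, MM1S and the average. With the passage as a block, 4 members passed in MM1R, 3 in MM1S and 17 in the average. The shares of all genes above come from the fit of all libraries without the block, so the counts of these other fits cannot be set against them. Some members passed in the average with the block and not in the same fit without it. ZBTB5, ZBTB11, ZBTB41 and ZBTB49 were higher, and ZBTB24, ZBTB26, ZBTB33, ZBTB38, ZBTB42 and ZBTB45 were lower (FDR from 0.0168 to 0.0491). Of these, ZBTB38 and ZBTB33 also passed with DESeq2 (FDR = 0.0436 and 0.0475). In edgeR's test without the filter on low counts, ZBTB38 and ZBTB24 passed (FDR = 0.0264 and 0.00261).

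**Figure D2:**
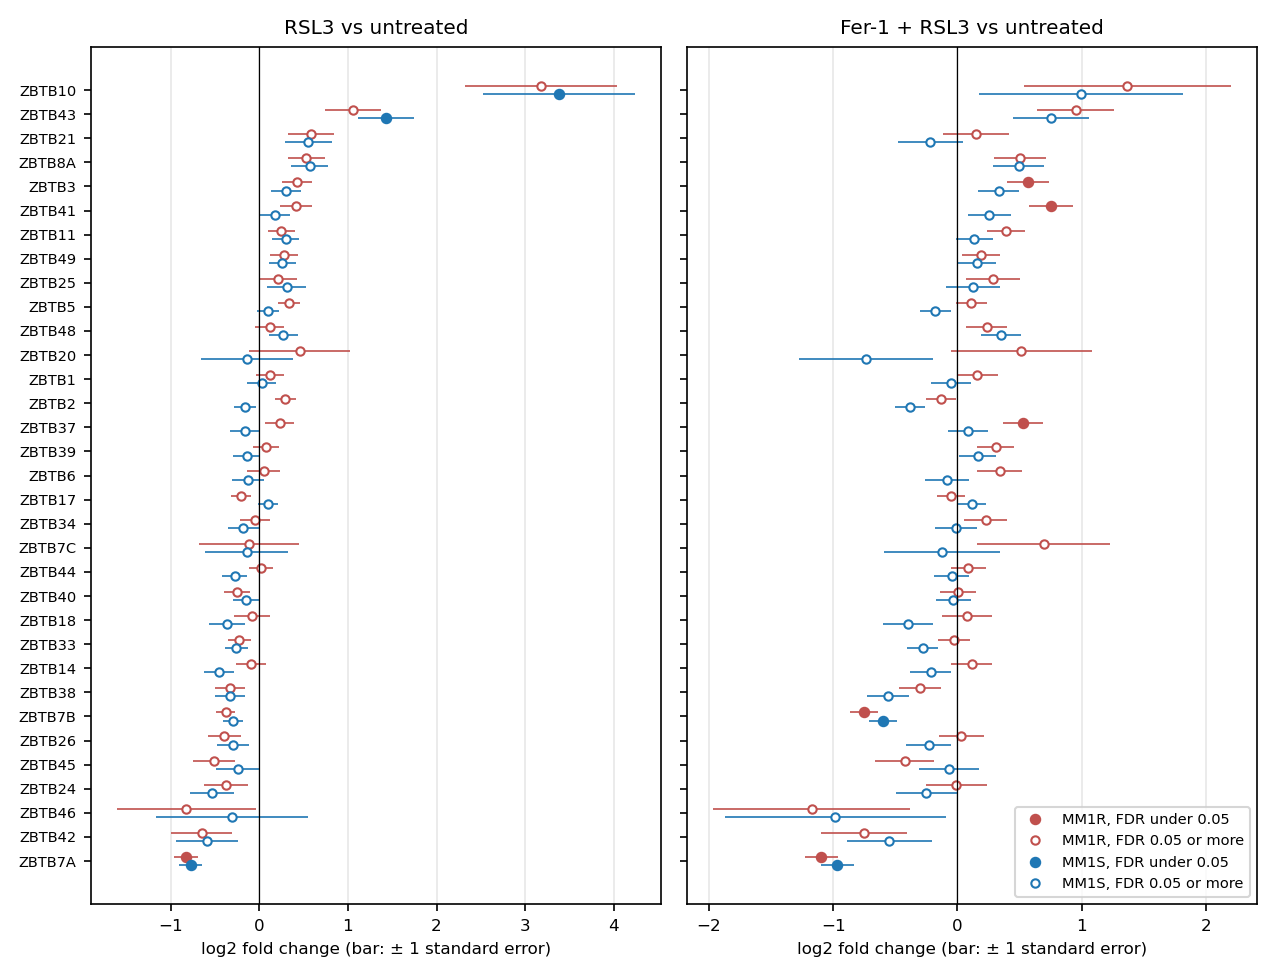
Log2 fold change of each of the 33 ZBTB genes for RSL3 (left) and for Fer-1 with RSL3 (right) against untreated cells, in MM1R (red) and MM1S (blue), with bars of 1 standard error and filled points for an FDR under 0.05. ZBTB7A is filled in both lines and both panels, ZBTB7B in both lines on the right only, and the standard errors of ZBTB10 are 0.82 to 0.86.

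ZBTB7A (chr19:4043301-4066897, minus strand, hg19), a repressor known for silencing fetal globin and for guiding B cell fate, had the smallest p of all members in both lines. Its level in MM1R cells was 133, 115 and 107 CPM without treatment and 61.4, 72.2 and 66.5 CPM with RSL3. In MM1S cells it was 123, 116 and 109 CPM without treatment and 59.2, 75.5 and 68.5 CPM with RSL3. The lowest untreated library lay above the highest RSL3 library in each line, and every passage moved the same way, with log2 ratios of -1.12 to -0.62. The change passed the test in MM1R (log2 fold change -0.83, standard error 0.13, FDR = 0.00467) and in MM1S (log2 fold change -0.77, standard error 0.13, FDR = 0.00582). It stayed past the threshold in each of the 18 fits that left out 1 library, with log2 fold changes of -0.89 to -0.74 in MM1R and -0.86 to -0.68 in MM1S. With only the groups compared in the fit, it passed in MM1R (FDR = 0.0122) and did not pass in MM1S.

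ZBTB7B (chr1:154975106-154990999, plus strand), known as ThPOK for its part in helper T cell fate and closely related to ZBTB7A, fell less. MM1R cells had 166, 142 and 154 CPM untreated and 112, 128 and 116 CPM with RSL3. MM1S cells had 126, 129 and 129 CPM untreated and 89.4, 115 and 109 CPM with RSL3. The groups did not overlap in either line, and all 6 passages were lower with RSL3. The average over both lines passed (log2 fold change -0.34, standard error 0.08, FDR = 0.00801), while the single lines did not (log2 fold change -0.38, standard error 0.11, FDR = 0.0664 in MM1R and log2 fold change -0.29, standard error 0.11, FDR = 0.147 in MM1S). With the passage as a block the MM1R change passed (log2 fold change -0.38, FDR = 0.02).

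ZBTB10, a factor of chromosome 8 that has been tied to repression of SP family genes and to variant telomere repeats, had the largest fold change of the members and the largest standard error. In MM1R cells its level went from 10.4, 5.94 and 3.53 CPM to 83.1, 11.4 and 86.5 CPM with RSL3. In MM1S cells it went from 7.72, 9.35 and 8.13 CPM to 229, 20.1 and 14.9 CPM with RSL3. Every RSL3 library lay above every untreated library, yet 3 of them (MM1R passages 4 and 7 and MM1S passage 16) were above 80 CPM and the other 3 between 11.4 and 20.1 CPM. The log2 ratios within passages were accordingly 3.00, 0.94 and 4.61 in MM1R and 4.89, 1.10 and 0.87 in MM1S. The average passed (log2 fold change 3.28, standard error 0.61, FDR = 0.00197) and so did MM1S (log2 fold change 3.38, standard error 0.86, FDR = 0.039), while MM1R missed narrowly (log2 fold change 3.18, standard error 0.86, FDR = 0.0525). The MM1S value rested on passage 16: without that library the log2 fold change was 1.06 and not called (FDR = 0.456), and with the passage as a block it missed as well (FDR = 0.0525). The block made the MM1R change pass (log2 fold change 3.00, FDR = 0.0261) and lowered the average (log2 fold change 2.78, FDR = 0.00311). DESeq2 returned no p-value for this gene.

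ZBTB43 (chr9:129567285-129600489, plus strand), a factor studied in germ cell chromatin, was highest in the same 3 RSL3 libraries. Its level in MM1R cells was 28.5, 24.1 and 21.5 CPM untreated and 53.1, 38.1 and 63.5 CPM with RSL3. In MM1S cells it was 23.6, 32.1 and 32.5 CPM untreated and 137, 51.1 and 49.6 CPM with RSL3. Groups did not overlap in either line, and the 6 passages had log2 ratios of 0.61 to 2.54, with the highest again at MM1S passage 16. The change passed in MM1S (log2 fold change 1.43, standard error 0.31, FDR = 0.0193) and in the average (log2 fold change 1.24, standard error 0.22, FDR = 0.00143). It did not pass in MM1R (log2 fold change 1.06, standard error 0.31, FDR = 0.0701), and with the block its FDR there was 0.0491. Without the MM1S RSL3 library of passage 16 the MM1S value was 0.78 (FDR = 0.108). That call was also lost without any 1 of the 3 untreated MM1S libraries, while the average held in all 18 fits.

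ZBTB21 (the former ZNF295, chr21:43406940-43430496, minus strand) was also highest in these 3 RSL3 libraries. MM1R cells had 65.8, 58.8 and 45.4 CPM untreated and 99.7, 66.0 and 89.3 CPM with RSL3. MM1S cells had 73.2, 86.7 and 83.1 CPM untreated and 189.5, 86.5 and 81.1 CPM with RSL3. Groups were apart in MM1R and overlapped in MM1S, where passages 22 and 23 had log2 ratios near 0 ( -0.0043 and -0.03). The average was just past the threshold (log2 fold change 0.57, standard error 0.19, FDR = 0.0477), and the single lines were not (FDR = 0.244 and 0.257). Without the MM1S RSL3 library of passage 16 the average was 0.32 (FDR = 0.117), and 13 of the 18 fits lost the call.

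**Figure D3:**
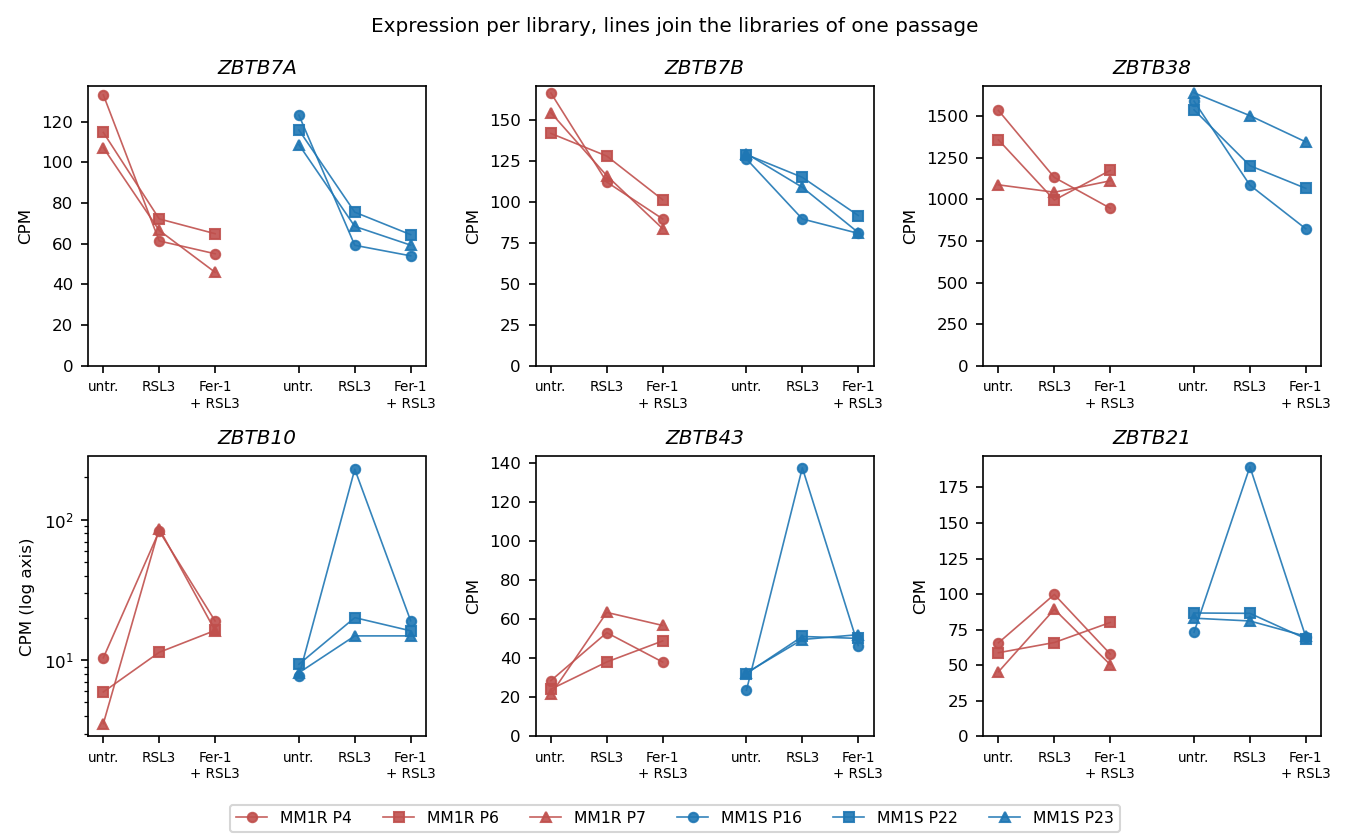
CPM of 6 ZBTB genes in every library, with lines joining the 3 libraries of a passage (red MM1R, blue MM1S), on linear axes from 0 except for ZBTB10, which is on a log axis. ZBTB7A and ZBTB7B step down from untreated to RSL3 to Fer-1 with RSL3 in every passage, while the RSL3 peaks of ZBTB10, ZBTB43 and ZBTB21 are highest at MM1S passage 16.

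ZBTB8A and ZBTB3, members with few known functions, rose in the average and passed in neither line alone. ZBTB8A measured 11.3, 13.7 and 10.9 CPM in untreated and 22.4, 16.8 and 12.6 CPM in RSL3-treated MM1R cells. In MM1S cells it measured 12.8, 11.1 and 14.2 CPM untreated and 17.7, 22.002 and 16.9 CPM with RSL3. The groups overlapped in MM1R and not in MM1S, and all 6 passages were higher (log2 fold change 0.55, standard error 0.15, FDR = 0.0191 in the average). Its call was lost without MM1R RSL3 replicate 1 (FDR = 0.0622), and the block made the MM1S change pass (log2 fold change 0.57, FDR = 0.037). ZBTB8A shares 5770 bases with ZBTB8OS on the other strand, and without a stated use of strand their reads cannot be told apart. ZBTB8OS itself did not pass (log2 fold change -0.02, standard error 0.08, FDR = 0.896).

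ZBTB3 measured 5.14, 6.97 and 7.36 CPM in untreated and 9.30, 8.18 and 8.66 CPM in RSL3-treated MM1R cells. In MM1S cells it measured 8.03, 8.46 and 9.19 CPM untreated and 9.40, 10.8 and 11.5 CPM with RSL3. All groups were apart and all passages were higher, with log2 ratios of 0.23 to 0.85. The average was near the threshold (log2 fold change 0.36, standard error 0.12, FDR = 0.0486), and 15 of the 18 fits that left out a library lost it (highest FDR = 0.112).

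Beyond single calls, 12 members in MM1R and 7 in MM1S had an unadjusted p under 0.05, that is 36.4% and 21.2% of them, against 18.5% and 19.5% of all genes. In the average there were 18 such members (54.5%), against 30.2%. In each line 14 members (42.4%) had RSL3 and untreated libraries that did not overlap, against 25.7% of all genes in MM1R and 24.9% in MM1S. In all 6 passages 6 members were higher with RSL3 (ZBTB3, ZBTB8A, ZBTB10, ZBTB41, ZBTB43 and ZBTB49), 18.2% against 13.8% of all genes. In all 6 passages 7 members were lower (ZBTB7A, ZBTB7B, ZBTB24, ZBTB26, ZBTB33, ZBTB38 and ZBTB42), 21.2% against 14.8%.

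Members close to the threshold are given by value, since they did not pass. ZBTB5, a repressor of CDKN1A, measured 27.0, 24.6 and 20.7 CPM in untreated and 33.6, 28.5 and 29.0 CPM in RSL3-treated MM1R cells, groups that did not overlap (log2 fold change 0.33, standard error 0.13, FDR = 0.159). In MM1S cells ZBTB5 measured 23.002, 29.9 and 29.0 CPM untreated and 31.0, 27.0 and 29.9 CPM with RSL3, with overlap. ZBTB14, a zinc finger factor that binds the MYC promoter, measured 19.4, 20.8 and 19.8 CPM in untreated and 10.6, 17.7 and 15.4 CPM in RSL3-treated MM1S cells, a log2 change of -0.45 (standard error 0.17, FDR = 0.143), with the lowest value at passage 16. In MM1R cells ZBTB14 measured 16.4, 13.7 and 15.99 CPM untreated and 15.5, 16.4 and 11.3 CPM with RSL3, with overlap. ZBTB24, whose loss causes an immunodeficiency with unstable centromeres, measured 39.0, 38.4 and 47.5 CPM untreated and 13.9, 35.3 and 37.1 CPM with RSL3 in MM1S, again lowest at passage 16 (log2 fold change -0.53, standard error 0.25, FDR = 0.245). In MM1R cells ZBTB24 measured 40.5, 41.3 and 38.3 CPM untreated and 28.6, 37.4 and 26.8 CPM with RSL3, without overlap (log2 fold change -0.37, standard error 0.25, FDR = 0.459). ZBTB24 overlaps MICAL1 on the same strand by 5337 bases, and MICAL1 had 39957 counts in all against 12155. MICAL1 had a log2 fold change near 0 in MM1S (log2 fold change 0.01, standard error 0.22, FDR = 0.99). In MM1R it was lower without passing (log2 fold change -0.23, standard error 0.22, FDR = 0.643).

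Whether the lines responded differently was asked with an interaction term. No member and no gene passed, so percent called was 0.0, and 1 member had an unadjusted p under 0.05 (3.03%), against 1.55% of all genes. DESeq2 also called 0 members. That member was ZBTB2, a factor tied to unmethylated CpG islands. It measured 25.4, 24.9 and 26.2 CPM in untreated and 31.0, 25.6 and 37.2 CPM in RSL3-treated MM1R cells. In MM1S cells it measured 27.5, 28.9 and 32.3 CPM untreated and 27.2, 25.4 and 26.9 CPM with RSL3. MM1R passages were all higher with RSL3 and MM1S passages all lower, but the difference, MM1S minus MM1R, did not pass (difference of log2 fold changes -0.45, standard error 0.17, FDR = 1). ZBTB17 (MIZ1) had the next smallest p (difference 0.31, standard error 0.16, FDR = 1). ZBTB17 measured 27.6, 24.0 and 26.9 CPM untreated and 25.0, 21.4 and 21.8 CPM with RSL3 in MM1R, against 24.3, 24.6 and 22.7 CPM untreated and 29.0, 24.8 and 23.1 CPM with RSL3 in MM1S. ZBTB37 was the third (difference -0.39, standard error 0.23, FDR = 1).

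Fer-1 before RSL3 was compared with RSL3 alone to ask what the lipid peroxidation inhibitor changed. No member passed the test in MM1R, in MM1S or in the average, where percent called over all genes was 0.0, 0.0 and 0.119%. At an unadjusted p under 0.05 there were 4 members in MM1R (12.1%) and 5 in MM1S (15.2%), against 6.17% and 5.75% of all genes. In the average there were 8 (24.2%), against 12.8%. DESeq2 and the blocked fit each called 0 members in the single lines and 2 in the average, ZBTB2 and ZBTB7B. Only a fit without the filter on low counts called members in the single lines, 1 in MM1R and 3 in MM1S.

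ZBTB10 had the largest difference, without passing. Its level with Fer-1 and RSL3 was 19.0, 16.3 and 16.2 CPM in MM1R and 19.1, 16.2 and 14.9 CPM in MM1S. All 6 values lay above all untreated libraries and spanned 14.9 to 19.1 CPM, against 11.4 to 229 CPM with RSL3 alone. The log2 ratios to RSL3 alone were -2.13, 0.52 and -2.41 in MM1R and -3.59, -0.31 and 0.00028 in MM1S. The 3 negative values beyond 2 in size belong to the 3 passages with the highest RSL3 levels. The average change was -2.10 with a standard error of 0.57 and did not pass (FDR = 0.14). ZBTB21 was next in MM1S by p. With Fer-1 and RSL3 it measured 57.9, 80.0 and 50.4 CPM in MM1R and 70.0, 68.7 and 70.4 CPM in MM1S (log2 fold change -0.60, standard error 0.19, FDR = 0.199 in the average). ZBTB43 with Fer-1 and RSL3 measured 38.0, 48.8 and 56.8 CPM in MM1R and 46.5, 50.1 and 52.1 CPM in MM1S, and these groups overlapped those of RSL3 alone.

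ZBTB7B and ZBTB2 had the smallest p in the average. ZBTB7B with Fer-1 and RSL3 was at 89.5, 101 and 83.5 CPM in MM1R and 80.7, 91.6 and 81.2 CPM in MM1S. All 6 passages were below their RSL3 library (log2 fold change -0.34, standard error 0.08, FDR = 0.0783), and with the passage as a block the change passed (log2 fold change -0.34, FDR = 0.026). ZBTB2 measured 22.2, 23.9 and 23.7 CPM in MM1R and 21.1, 23.5 and 23.6 CPM in MM1S with Fer-1 and RSL3, below the RSL3 libraries in both lines. Its average change was -0.32 (standard error 0.08, FDR = 0.126) and passed with the block (FDR = 0.0461). ZBTB7A was also lower than with RSL3 alone in all 6 passages, at 55.1, 64.9 and 45.9 CPM in MM1R and 54.0, 64.4 and 59.3 CPM in MM1S (log2 fold change -0.23, standard error 0.09, FDR = 0.317). In no passage was ZBTB7A or ZBTB7B nearer to the untreated level with Fer-1 and RSL3 than with RSL3 alone.

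**Figure D4:**
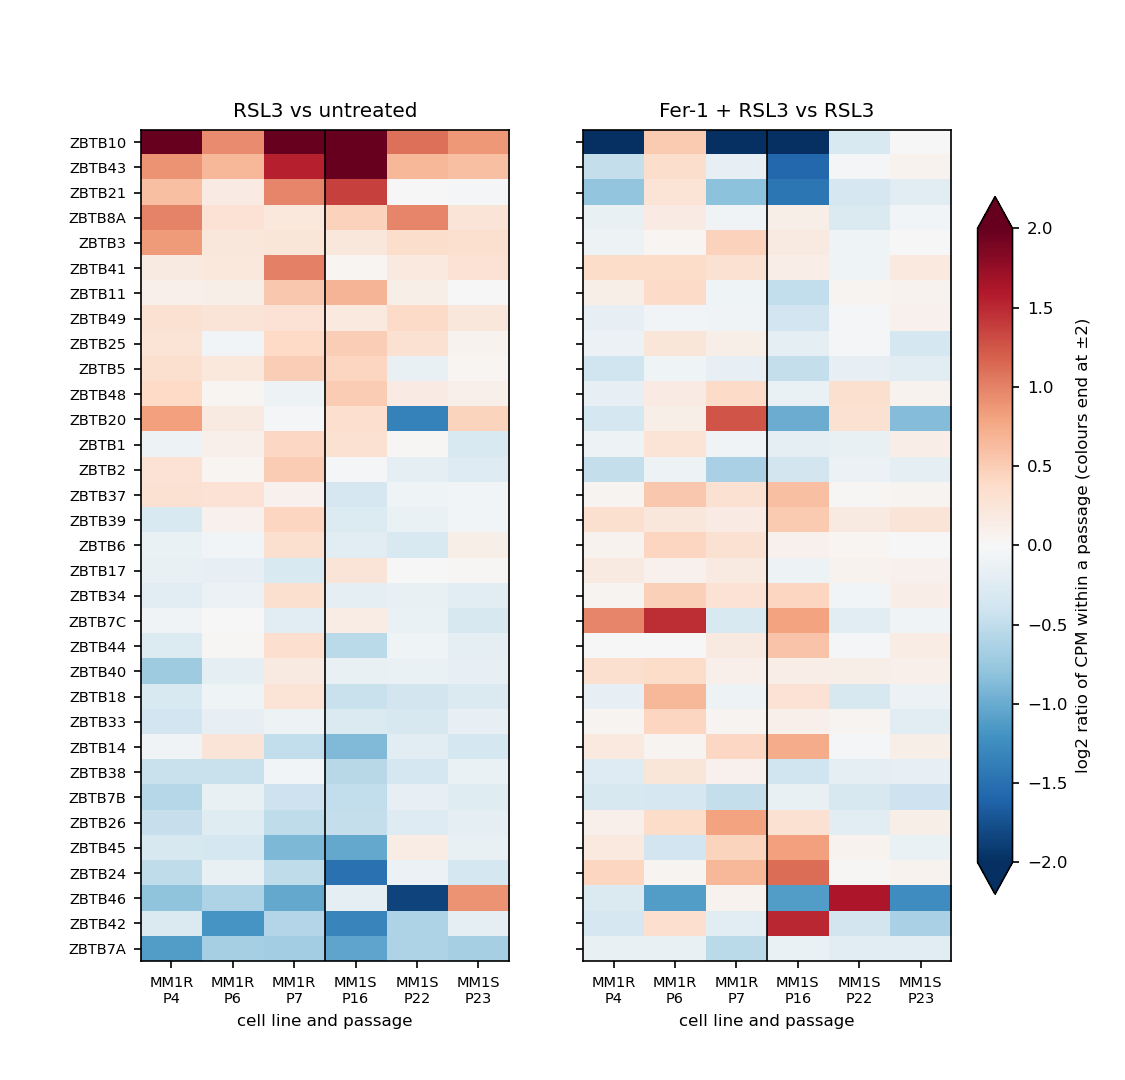
Log2 ratio of CPM within each passage for the 33 ZBTB genes, RSL3 over untreated on the left and Fer-1 with RSL3 over RSL3 on the right, with colours that end at 2 in either direction. The 2 panels share the RSL3 libraries. The deep red cells of ZBTB10 on the left are passages 4 and 7 of MM1R and 16 of MM1S, and the rows of ZBTB7A and ZBTB7B are blue on both sides.

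ZBTB26, ZBTB5 and ZBTB39 were also among the members with the smallest p in a single line. ZBTB26 measured 8.28, 9.53 and 6.83 CPM with RSL3 and 8.85, 12.3 and 12.0 CPM with Fer-1 and RSL3 in MM1R (log2 fold change 0.42, standard error 0.18, FDR = 0.754), and the untreated values were 11.4, 11.3 and 9.67 CPM. In MM1S ZBTB26 measured 12.5, 14.3 and 14.7 CPM untreated, 8.94, 11.9 and 12.9 CPM with RSL3 and 11.0, 10.3 and 13.9 CPM with Fer-1 and RSL3. ZBTB5 measured 22.2, 24.2 and 26.0 CPM in MM1S, below all RSL3 libraries (log2 fold change -0.28, standard error 0.13, FDR = 0.851), and 25.4, 26.8 and 25.9 CPM in MM1R. Neither gene passed in either line. ZBTB39 measured 23.5, 31.9 and 32.4 CPM with RSL3 and 33.9, 36.0 and 38.7 CPM with Fer-1 and RSL3 in MM1S (log2 fold change 0.30, standard error 0.15, FDR = 0.872). In MM1R ZBTB39 measured 30.0, 29.3 and 24.7 CPM untreated, 24.3, 31.2 and 33.3 CPM with RSL3 and 30.4, 36.6 and 37.2 CPM with Fer-1 and RSL3, and untreated MM1S libraries had 28.4, 34.9 and 33.6 CPM. In all 6 passages 5 members were higher with Fer-1 than with RSL3 alone (ZBTB6, ZBTB24, ZBTB37, ZBTB39 and ZBTB40, 15.2% against 8.05% of all genes). In the same way 4 were lower (ZBTB2, ZBTB5, ZBTB7A and ZBTB7B, 12.1% against 6.56%).

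Cells given Fer-1 and RSL3 had less ZBTB7A and ZBTB7B than untreated cells in both lines, and more ZBTB41 and ZBTB3 in MM1R and in the average. In MM1R 5 members passed, 3 higher and 2 lower, against 9.22% of all genes (5.57% higher and 3.66% lower). In MM1S 2 members passed, both lower, against 4.61% in either direction and 2.02% lower. In the average 8 passed, 4 higher and 4 lower, against 19.0% (10.5% higher and 8.47% lower). Without the MM1R library of passage 6 that stood apart, 2 members passed in MM1R (ZBTB7A and ZBTB7B), 2 in MM1S and 6 in the average. Without the MM1S RSL3 library of passage 16, the counts were 7, 4 and 12. With the passage as a block they were 7, 4 and 14. The members that passed in the average with the block and not in the main fit were ZBTB11, ZBTB37, ZBTB39 and ZBTB48 (higher) and ZBTB42 and ZBTB46 (lower), with FDR from 0.00944 to 0.0479. Of these, ZBTB11, ZBTB42 and ZBTB48 also passed with only the groups compared (FDR = 0.0262, 0.0272 and 0.0402). ZBTB42 passed with DESeq2 as well (FDR = 0.0425), and ZBTB42 and ZBTB46 without the filter on low counts (FDR = 0.0332 and 0.00378). The shares of all genes above come from the main fit, so the counts of these other fits cannot be set against them. ZBTB46 (445 counts in all) shares 383 bases with SLC2A4RG (17267 counts) on the other strand. SLC2A4RG was also lower in the average of the main fit (log2 fold change -0.28, standard error 0.07, FDR = 0.0128). Libraries did not overlap between these groups for 15 members (45.5%) in MM1R and 14 (42.4%) in MM1S, against 30.6% and 28.3% of all genes. In all 6 passages 8 members were higher (24.2% against 17.1%) and 4 were lower (12.1% against 16%). An effect of Fer-1 itself and what is left of the RSL3 effect cannot be told apart in this comparison, which shares its untreated libraries with the RSL3 comparison.

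ZBTB7A and ZBTB7B led this comparison in both lines. ZBTB7A was at 45.9 to 64.9 CPM against 107 to 133 CPM in untreated cells (log2 fold change -1.10, standard error 0.13, FDR = 0.000252 in MM1R and log2 fold change -0.97, standard error 0.13, FDR = 0.000702 in MM1S). Mean levels of ZBTB7A were 118 ± 13.4 CPM untreated and 55.3 ± 9.48 CPM with Fer-1 and RSL3 in MM1R (SD, n = 3 each). ZBTB7B was at 80.7 to 101 CPM against 126 to 166 CPM (log2 fold change -0.75, standard error 0.11, FDR = 0.000942 in MM1R and log2 fold change -0.60, standard error 0.11, FDR = 0.00477 in MM1S). Its means were 154 ± 12.3 and 91.4 ± 8.97 CPM in MM1R and 128 ± 1.74 and 84.5 ± 6.13 CPM in MM1S (SD, n = 3 each). Neither gene's groups overlapped in either line, and both calls held in all 18 fits without 1 library in each line. Without the MM1R library that stood apart, the MM1R changes were -1.23 for ZBTB7A and -0.83 for ZBTB7B.

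The members that were higher were ZBTB3, ZBTB37 and ZBTB41 in MM1R, genes with few described functions, and ZBTB3, ZBTB8A, ZBTB41 and ZBTB43 in the average. ZBTB41 measured 14.2, 15.8 and 8.05 CPM untreated, 16.1, 18.4 and 16.2 CPM with RSL3 and 20.8, 23.6 and 19.9 CPM with Fer-1 and RSL3 in MM1R. In MM1S its values were 17.1, 16.7 and 15.3 CPM untreated, 17.5, 19.1 and 18.7 CPM with RSL3 and 19.3, 17.9 and 21.5 CPM with Fer-1 and RSL3. It passed in MM1R (log2 fold change 0.76, standard error 0.18, FDR = 0.0144) and in the average (log2 fold change 0.51, standard error 0.13, FDR = 0.00935). The lowest of all was the untreated library of MM1R passage 7, and the MM1R call was lost without the library that stood apart (FDR = 0.0627), while the average held in all 18 fits. ZBTB3 with Fer-1 and RSL3 measured 8.65, 8.37 and 11.9 CPM in MM1R (log2 fold change 0.57, standard error 0.17, FDR = 0.0441) and 10.6, 10.2 and 11.5 CPM in MM1S (log2 fold change 0.45, standard error 0.12, FDR = 0.0138 in the average). Its MM1R call was lost in 17 of the 18 fits, and its average in none.

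ZBTB37 measured 13.2, 11.8 and 11.5 CPM untreated, 16.2, 14.4 and 12.1 CPM with RSL3 and 16.9, 20.8 and 14.9 CPM with Fer-1 and RSL3 in MM1R (log2 fold change 0.53, standard error 0.16, FDR = 0.0484). The highest of these was the library that stood apart, and 12 of the 18 fits lost the call (highest FDR = 0.209). In MM1S ZBTB37 measured 15.7, 13.6 and 14.3 CPM untreated, 12.4, 12.8 and 13.7 CPM with RSL3 and 18.9, 13.0 and 14.3 CPM with Fer-1 and RSL3 (log2 fold change 0.08, standard error 0.16, FDR = 0.857). ZBTB37 overlaps GAS5, a snoRNA host gene on the other strand, by 801 bases, and GAS5 did not pass in MM1R (log2 fold change -0.13, standard error 0.13, FDR = 0.576). ZBTB8A with Fer-1 and RSL3 measured 20.1, 18.8 and 12.1 CPM in MM1R and 19.2, 18.04 and 16.3 CPM in MM1S (log2 fold change 0.50, standard error 0.15, FDR = 0.0252 in the average). Its call was lost in 6 of the 18 fits. ZBTB43 stayed above untreated cells with Fer-1 in all 6 passages (log2 fold change 0.85, standard error 0.22, FDR = 0.0118 in the average), and ZBTB10 did too without passing (log2 fold change 1.18, standard error 0.59, FDR = 0.174).

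ZBTB38 and ZBTB2 were lower in the average besides ZBTB7A and ZBTB7B. ZBTB38 measured 1534, 1357 and 1087 CPM untreated, 1131, 996 and 1043 CPM with RSL3 and 947, 1174 and 1111 CPM with Fer-1 and RSL3 in MM1R. In MM1S it measured 1589.8, 1537 and 1639.8 CPM untreated, 1085, 1202 and 1503 CPM with RSL3 and 823, 1066 and 1345 CPM with Fer-1 and RSL3. Both treated groups lay below the untreated one in MM1S, most at passage 16, and they overlapped it in MM1R through passage 7. The average passed for Fer-1 with RSL3 (log2 fold change -0.43, standard error 0.12, FDR = 0.0178) in all 18 fits and missed for RSL3 alone (log2 fold change -0.33, standard error 0.12, FDR = 0.0698), where the block made it pass (FDR = 0.0168). ZBTB38 overlaps PXYLP1 on the same strand, a gene with 1076 counts in all against 413581. ZBTB2 fell in all 6 passages (log2 fold change -0.26, standard error 0.08, FDR = 0.0431 in the average), a call that 14 of the 18 fits lost (highest FDR = 0.114).

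Between untreated MM1R and MM1S cells, 1 of 33 members passed, against 10.5% of all genes. That was ZBTB7C (chr18:45553043-45937123, minus strand), a relative of ZBTB7A that was at most 3.55 CPM in any library. It measured 0.675, 0.545 and 0.869 CPM in MM1R and 0.829, 3.55 and 2.46 CPM in MM1S. MM1S passage 16 was as low as MM1R, so the groups overlapped (log2 fold change -1.71, standard error 0.51, FDR = 0.0435), and 11 of the 18 fits lost the call (highest FDR = 0.224). With RSL3 ZBTB7C measured 0.645, 0.542 and 0.74 CPM in MM1R and 0.92, 3.25 and 1.97 CPM in MM1S. After both agents it measured 1.26, 1.51 and 0.601 CPM in MM1R and 1.61, 2.79 and 1.89 CPM in MM1S. MM1S passage 16 was the lowest MM1S passage under every treatment. The count of members called was 2 without the MM1R library that stood apart and 2 without the MM1S RSL3 library of passage 16. The lines share no passage number, so line and passage history cannot be told apart, and no blocked fit could be made for this comparison. The untreated libraries of the lines did not overlap for 12 members (36.4%), against 32.4% of all genes.

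The next members by p did not pass in the main fit. ZBTB33 passed with DESeq2 (FDR = 0.0399). With only the groups compared in edgeR's test, ZBTB6 passed (FDR = 0.0425) and ZBTB7C did not. ZBTB33 (Kaiso, chrX:119384607-119392253, plus strand) measured 52.4, 47.1 and 42.9 CPM in untreated MM1R and 65.2, 58.9 and 61.8 CPM in untreated MM1S cells, with no overlap (log2 fold change -0.38, standard error 0.13, FDR = 0.0641). With RSL3 it measured 40.3, 42.0 and 39.8 CPM in MM1R and 53.2, 47.0 and 55.4 CPM in MM1S. After both agents it was at 41.6, 56.7 and 41.4 CPM in MM1R and 57.2, 48.7 and 47.1 CPM in MM1S. The library that stood apart, at passage 6, was the only MM1R library within the MM1S range of that treatment. ZBTB6 measured 21.9, 23.6 and 19.3 CPM in untreated MM1R and 26.7, 34.8 and 32.5 CPM in untreated MM1S cells, also with no overlap (log2 fold change -0.54, standard error 0.18, FDR = 0.0684). ZBTB18, a repressor known from brain development, measured 24.5, 16.9 and 13.7 CPM in untreated MM1R and 26.8, 28.5 and 24.0 CPM in untreated MM1S cells, with overlap (log2 fold change -0.52, standard error 0.20, FDR = 0.116). With RSL3 ZBTB18 measured 19.8, 15.9 and 16.5 CPM in MM1R and 19.7, 22.2 and 19.7 CPM in MM1S. ZBTB7B was higher in MM1R without overlap (log2 fold change 0.27, standard error 0.11, FDR = 0.135) and ZBTB3 lower without overlap (log2 fold change -0.40, standard error 0.17, FDR = 0.151). ZBTB46, which marks conventional dendritic cells, was low and uneven between passages, at 3.59, 1.91 and 2.55 CPM in untreated MM1R and 2.69, 0.575 and 0.201 CPM in untreated MM1S cells, and did not pass (FDR = 0.379).

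**Figure D5:**
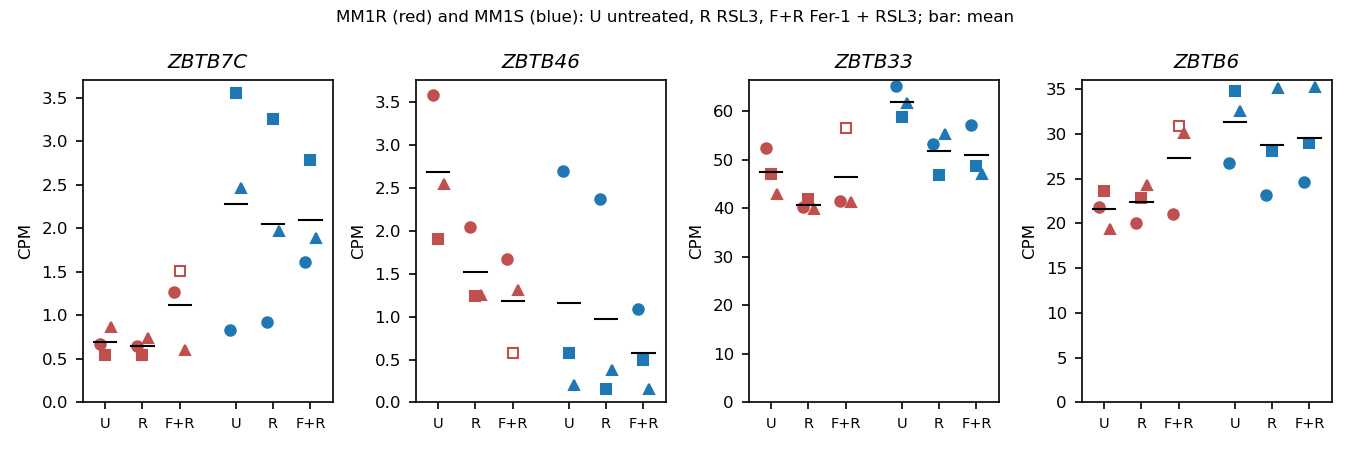
CPM of 4 ZBTB genes in MM1R (red) and MM1S (blue) by treatment, with circles, squares and triangles for replicates 1, 2 and 3, a bar at the mean of 3 libraries and an open symbol for the MM1R library that stood apart. ZBTB33 and ZBTB6 are lower in untreated MM1R than in untreated MM1S in every library, while ZBTB7C and ZBTB46 overlap between the untreated lines.

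Grouped by role, the factors known from lymphocytes and plasma cells (ZBTB1, ZBTB7A, ZBTB7B, ZBTB17, ZBTB20, ZBTB24, ZBTB25, ZBTB32 and ZBTB46) had 8 of 9 genes tested. Of these 0 were higher and 2 lower with RSL3 in the average, ZBTB7A and ZBTB7B, with a median log2 fold change of -0.19 against -0.00013 for all genes. In that average 6.81% of all genes were lower and 8.7% higher. The same 2 were lower with Fer-1 and RSL3, where 8.47% of all genes were lower and 10.5% higher, with a median of -0.12 against 0.0033. ZBTB1, needed for lymphoid development, measured 44.4, 36.5 and 31.8 CPM untreated and 41.2, 39.2 and 42.2 CPM with RSL3 in MM1R (log2 fold change 0.12, standard error 0.16, FDR = 0.767). In MM1S ZBTB1 measured 44.6, 39.2 and 43.8 CPM untreated and 55.1, 39.7 and 35.5 CPM with RSL3 (log2 fold change 0.03, standard error 0.16, FDR = 0.951), highest at passage 16. The ZBTB25 average was 0.26 on the log2 scale, with a standard error of 0.15. This gene shares 1502 bases with ZBTB1, 14352 with MTHFD1 and 9005 with AKAP5, all on the other strand.

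The methyl-CpG-binding factors (ZBTB4, ZBTB33 and ZBTB38) had 2 of 3 genes tested, with ZBTB4 at 0. With RSL3 0 passed in the average, against 15.5% of all genes, though both were lower in all 6 passages (median log2 fold change -0.28 against -0.00013 for all genes). After Fer-1 and RSL3, 1 was lower, ZBTB38, against 19.0% of all genes called. Factors tied to the control of cell division (ZBTB2, ZBTB4, ZBTB5, ZBTB7A, ZBTB17 and ZBTB49) had 5 of 6 tested, with 1 lower and 0 higher with RSL3 (ZBTB7A) and 2 lower with Fer-1 and RSL3 (ZBTB2 and ZBTB7A), beside 6.81% and 8.47% of all genes lower. ZBTB49, an activator of CDKN1A, was higher with RSL3 in all 6 passages without passing (log2 fold change 0.27, standard error 0.11, FDR = 0.0988). Factors of telomere and genome maintenance (ZBTB1, ZBTB10, ZBTB24, ZBTB40 and ZBTB48) had all 5 tested, with 1 higher with RSL3 (ZBTB10) and 0 called with Fer-1 and RSL3. These counts stand beside 8.7% of all genes higher with RSL3 and 19.0% called with Fer-1 and RSL3. ZBTB48 (TZAP), which trims long telomeres, measured 13.4, 12.7 and 14.2 CPM untreated, 17.6, 13.0 and 13.2 CPM with RSL3 and 15.8, 14.5 and 17.1 CPM with Fer-1 and RSL3 in MM1R. In MM1S ZBTB48 measured 13.6, 12.4 and 12.1 CPM untreated, 19.3, 13.9 and 13.0 CPM with RSL3 and 17.6, 17.3 and 13.6 CPM with Fer-1 and RSL3 (log2 fold change 0.29, standard error 0.12, FDR = 0.0871 in the average).

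Of CDCA7, CDKN1A, CDKN2B and MTFP1, known as targets of these factors, 0 passed after RSL3 or after Fer-1 with RSL3 in the average. In these comparisons 15.5% and 19.0% of all genes passed. CDKN1A and CDKN2B were higher in untreated MM1R than in untreated MM1S, where 10.5% of all genes passed in either direction. CDCA7, which ZBTB24 activates, did not pass with RSL3 (log2 fold change -0.32, standard error 0.16, FDR = 0.184). CDKN1A, a cell cycle inhibitor that ZBTB5 and ZBTB17 can repress, did not pass with RSL3 (log2 fold change 0.61, standard error 0.25, FDR = 0.108) and was higher in untreated MM1R (log2 fold change 1.67, standard error 0.36, FDR = 0.00764).

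ZBTB43 (chr9:129567285-129600489, plus strand) and ZBTB34 (chr9:129622918-129648157, plus strand) are neighbours on the same strand of chromosome 9. ZBTB43 rose with RSL3, and ZBTB34 averaged -0.11 on the log2 scale and did not pass (FDR = 0.591). ZBTB6 (chr9:125670335-125675602, minus strand) and ZBTB26 (chr9:125677845-125693791, minus strand) are neighbours on the other strand of that chromosome, and neither passed (log2 fold changes -0.04 and -0.34). Without the block, ZBTB11, ZBTB40, ZBTB42 and ZBTB45 did not pass in the average with RSL3. Their average log2 fold changes with RSL3 were 0.27 for ZBTB11, -0.20 for ZBTB40, -0.62 for ZBTB42 and -0.38 for ZBTB45.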

How the data were processed

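RNA was extracted from 18 cultures with a column kit, and libraries were read as paired ends on a BGISEQ-500. Per the labels and the study's methods, the authors checked reads with FastQC 0.11.5 and aligned them to hg19 with STAR 2.7.3a. The counting tool, the annotation and the use of strand are not given in the sources used here. The deposited raw counts cover 43735 genes, and the deposited normalized signal (29553 genes) is the count divided by a size factor that the authors took from DESeq2. The members and gene lists were chosen with earlier results of these data known, so no count of members is independent evidence.

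Counts were tested with edgeR 4.0.16 (R 4.3.3), using filterByExpr with a minimum count of 10, TMM scaling and the quasi-likelihood test on 6 group means, with 12 residual degrees of freedom. P-values were adjusted by Benjamini and Hochberg over the 14281 genes tested, and a call is an adjusted p (FDR) under 0.05. The average is the mean of the changes of both lines. CPM uses TMM-scaled library sizes, and exon lengths and positions come from GENCODE v44lift37 (hg19) by symbol. Members called in any comparison, those with the smallest p, the extremes of level and a list of known roles are given per library. Library totals were 17635438 to 19368343. Whether depth or the spread between passages limits the calls was not tested.

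Replicates of different treatments share a passage in the labels. Deviations of same-passage libraries correlated with a median r of 0.250 in MM1R (0.0338 to 0.516, 9 pairs) and 0.416 in MM1S (0.216 to 0.681, 9 pairs), and a blocked fit was run beside the one without. The shared passage comes from the labels, and the study's methods name no block. Alternatives were DESeq2 1.42.0, another scaling, 2 other filters, only the groups compared, limma 3.58.1 on log2 of the normalized values plus 1, and leaving out each library. In simulated data on 14044 genes with 200 changed by 4-fold, the test recovered 173 in MM1R with 5 false calls, 171 in MM1S with 10 and 191 in the average with 5. The simulated counts held no passage effect and the same change in every RSL3 library. These figures therefore do not carry over to smaller changes or to changes that differ between passages. No column without a sample was used. Some genes of the lists are not reported here.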

Additional observations from a re-analysis of the deposited data

Results flagged for a closer look

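The log2 ratios of ZBTB17, ZBTB37 and ZBTB2 with RSL3 had opposite signs in the lines, in every passage. For ZBTB17 the MM1S ratios at passages 22 and 23 were close to no change, at 0.0097 and 0.023. Its raw counts there went from 471 to 465 and from 453 to 433. The share of all genes with such a pattern was not counted. The median log2 ratio over passages was -0.17 in MM1R and 0.023 in MM1S for ZBTB17, 0.29 and -0.087 for ZBTB37, and 0.29 and -0.19 for ZBTB2. The interaction term of edgeR's test did not pass for any of them (FDR = 1 each).

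ZBTB20 moved in opposite directions with Fer-1 and RSL3 against untreated cells, with a median log2 ratio of 0.48 in MM1R and -0.65 in MM1S. These ratios rest on 2 to 13 counts per library, and the difference was not tested.

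The count table also holds 10 rows whose symbol is that of a ZBTB gene with an added suffix, which stayed outside the comparisons. A copy of ZBTB22 had up to 17 counts in a library (169 in all) and a copy of ZBTB9 up to 26 (314 in all), while the rows named ZBTB22 and ZBTB9 had at most 1. The other 8 had at most 1 count in a library. What the suffix stands for is not given in the sources used here.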

How the results depend on the processing

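No called result changed direction under the alternatives run. Of 96 results for single genes, 27 were called, and 16 of these were called in all 18 fits that left out 1 library. With the passage as a replicate block 25 of 26 calls that could be fitted were kept and 24 uncalled results passed, and with DESeq2 25 of 25 were kept and 11 uncalled passed.

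For RSL3 against untreated MM1R (1 member called), DESeq2 called 3, no filter 4, the filter at 2 CPM 2, the replicate block 4, only the groups compared 3 and the block without the MM1R library that stood apart 3. In MM1S (3 called), no filter gave 5 and only the groups compared 0. In the average (7 called), the block gave 17 and the block without that library 16. For Fer-1 with RSL3 against RSL3 alone (0 called), no filter gave 1 in MM1R and 3 in MM1S, and the average had 2 with DESeq2, 3 with no filter, 2 with the block and 1 with the block without that library. Against untreated cells, MM1R (5 called) had 3 with RLE scaling and 3 with limma. MM1S (2 called) had 4 with DESeq2, 5 with no filter, 4 with the block, 4 with only the groups compared and 5 with the block without that library, and the average (8 called) had 14 with the block. Between untreated lines (1 called), DESeq2 gave 2, no filter 4 and limma 0. With only the groups compared the count stayed at 1, but the gene called was ZBTB6 and not ZBTB7C. The causes were not tested, and the shares of all genes called under these settings or without 1 library are not given here. No paired analysis was possible for the untreated lines because they share no passage.

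Leaving out 1 library gave 1 to 5 members for RSL3 in MM1R, 1 to 3 in MM1S and 4 to 9 in the average, 0 to 0 for the interaction, 0 to 0, 0 to 0 and 0 to 1 for Fer-1 with RSL3 against RSL3 in MM1R, MM1S and the average, 2 to 7, 2 to 4 and 6 to 12 against untreated cells, and 0 to 2 between untreated lines. ZBTB10 in MM1S lost its call without MM1R Fer-1 + RSL3 replicates 1 and 3, MM1R untreated replicate 2, MM1S Fer-1 + RSL3 replicates 2 and 3, MM1S RSL3 replicate 1, MM1S untreated replicates 1, 2 and 3. ZBTB21 in the RSL3 average kept it only without MM1R Fer-1 + RSL3 replicates 2 and 3, MM1R RSL3 replicate 2, MM1S RSL3 replicates 2 and 3, and ZBTB3 only without MM1R Fer-1 + RSL3 replicate 3, MM1R untreated replicate 3, MM1S RSL3 replicate 1. With Fer-1 and RSL3, ZBTB3 in MM1R kept its call only without MM1S RSL3 replicate 1, ZBTB37 only without MM1R Fer-1 + RSL3 replicate 3, MM1R RSL3 replicates 1 and 3, MM1S Fer-1 + RSL3 replicates 1 and 2, MM1S RSL3 replicate 1 and ZBTB2 in the average only without MM1R RSL3 replicates 2 and 3, MM1S RSL3 replicate 1, MM1S untreated replicate 1. ZBTB8A in that average lost it without MM1R Fer-1 + RSL3 replicates 1 and 2, MM1R untreated replicates 1 and 3, MM1S Fer-1 + RSL3 replicate 1, MM1S untreated replicate 2. ZBTB7C between untreated lines kept its call only without MM1R Fer-1 + RSL3 replicates 2 and 3, MM1S Fer-1 + RSL3 replicates 1 and 2, MM1S RSL3 replicates 1 and 2, MM1S untreated replicate 1.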

Other observations

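BTB zinc finger genes that carry other symbols were also measured, with 7 of 8 tested. In the average with RSL3, 3 were higher and 1 lower, where 8.7% of all genes were higher and 6.81% lower. BCL6, the repressor of germinal centre B cells, rose (log2 fold change 1.32, standard error 0.39, FDR = 0.0315), as did GZF1 (log2 fold change 0.50, standard error 0.13, FDR = 0.013) and MYNN (log2 fold change 0.28, standard error 0.09, FDR = 0.0418), and PATZ1 fell (log2 fold change -0.38, standard error 0.10, FDR = 0.0156). With Fer-1 and RSL3 against untreated cells 3 were higher and 2 lower (of all genes, 10.5% and 8.47%), among them BCL6 (log2 fold change 1.94, standard error 0.39, FDR = 0.00226) and HIC1, a tumour suppressor that fell (log2 fold change -1.59, standard error 0.28, FDR = 0.00105).

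Of 14 corepressor and cullin partners of BTB proteins, 12 were tested. In the average with RSL3, 1 was higher (TBL1XR1) and 3 were lower (SIN3B, HDAC2 and CTBP1), while 15.5% of all genes were called. With Fer-1 and RSL3 against untreated cells, 1 was higher (TBL1XR1) and 5 were lower (BCOR, SIN3B, HDAC1, HDAC2 and CTBP1), while 19.0% of all genes were called. The median log2 fold change was -0.15 with RSL3 and -0.15 with Fer-1 and RSL3, against -0.00013 and 0.0033 for all genes.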
